A study of Mus musculus with 12 samples.

Results

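The genes of N-glycosylation and of the oligosaccharyltransferase were followed in RNA of isolated mouse alveolar type 2 epithelial cells (AEC2), the surfactant-producing cells of the lung. They were taken from a list of 38 gene symbols that covers sugar precursors, the lipid-linked oligosaccharide, its transfer to protein and its trimming. The rule names genes by function and uses no measured value, although the list was chosen with earlier results of these data known. All 38 were measured, among 16080 genes in all, and none was lost to a filter on low values.

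The study asked how AEC2 transcription responds to expression of a mutant surfactant protein C (SP-C), whose precursor carries a BRICHOS folding domain. The 3 groups were SP-C C185G, the mutant, SP-C C185Gneo, which the series names a hypomorphic control, and SP-C WT, with 4 libraries each. All were female mice of the Bl6 strain aged 56 days (P56). Mice of every group, WT included, had received tamoxifen intraperitoneally at 200 mg/kg on 2 days, and AEC2 were isolated on day 7. The recombinase that tamoxifen acts on and its promoter are not given in the labels, nor whether a library holds 1 animal or several. P-values therefore measure the spread between these libraries, which may be technical. Groups follow the genotype field of the labels, and the sample titles use the name C185G for the libraries of genotype C185Gneo, while those of genotype C185G carry another code in their titles, so titles and genotypes disagree. Sftpc, the edited gene, averaged 2833 ± 256 normalized CPM in C185G, 895 ± 143 in C185Gneo and 7467 ± 194 in WT (SD, n = 4 each), so it was lowest in the group described as hypomorphic.

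N-glycans are built on the lipid dolichol at the membrane of the endoplasmic reticulum (ER). The ALG enzymes add sugars one by one, first on the cytosolic and then on the lumenal side, and the oligosaccharyltransferase moves the finished glycan onto asparagines of proteins that enter the ER. Glucose trimming then couples the glycan to the calnexin and calreticulin folding cycle, and Golgi enzymes remodel it. Secretory cells such as AEC2 pass much of their protein through these steps.

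Levels are normalized CPM, read counts multiplied by the authors' factor for each library, relative to the mean scaled total. Fold changes are on the log2 scale, and a gene was called at an adjusted p under 0.05 (limma over all genes, Benjamini-Hochberg). Library totals ran from 15659512 to 23444287 counts. All 10 AEC2 markers on the list used were measured, and their summed level ran from 13330 to 16460 CPM in C185G, 33150 to 37240 in C185Gneo and 35460 to 41590 in WT. AEC2 markers were thus detected in all groups, and every one of the 10 was called lower in C185G against WT. Against C185Gneo 9 were called lower and 1, the edited gene Sftpc, higher. Summed mesenchymal markers (8 of 8 measured) ran from 592 to 803 CPM in C185G, 174 to 510 in C185Gneo and 451 to 701 in WT, and 1 of them was called higher in C185G against WT and 6 against C185Gneo. Endothelial markers (8 of 9 measured, all but Emcn) summed to 116 to 138 CPM in C185G, 144 to 230 in C185Gneo and 158 to 248 in WT, with 6 called lower in C185G against WT and 7 against C185Gneo. Leukocyte markers (6 of 9 measured) summed to 62.3 to 74.5 CPM in C185G, 49.5 to 64.0 in C185Gneo and 58.6 to 77.5 in WT, and 2 were called higher in C185G against each. Mrc1, near the floor at 0.413 CPM in C185Gneo and 1.02 in WT, was called lower in C185Gneo against WT (adjusted p = 0.0226). Club markers (4 of 4 measured) summed to 4502 to 5086 CPM in C185G, 5489 to 6888 in C185Gneo and 5270 to 7190 in WT, with 2 lower against WT and 3 against C185Gneo. Muc5b, called lower against C185Gneo only, averaged 205 CPM in C185G, 526 in C185Gneo and 174 in WT. It was called higher in C185Gneo against WT (log2 fold change 1.64, adjusted p = 0.0141). Ciliated markers (4 of 4) summed to 634 to 1002 CPM in C185G, 810 to 1077 in C185Gneo and 907 to 1259 in WT, with 2 lower against each. Alveolar type 1 markers (8 of 8) summed to 1634 to 2006 CPM in C185G, 1609 to 1973 in C185Gneo and 1633 to 2115 in WT, with 2 higher and 1 lower against each. Whether these shifts take part in the values given here was not tested, and in bulk RNA fewer cells of a type and less RNA per cell cannot be told apart.

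The N-glycosylation genes changed in both directions in C185G cells and by moderate amounts. Against WT, 12 of the 38 genes were higher and 10 lower, 22 in all (57.9%), where 55% of all measured genes were called in either direction, 27.3% higher and 27.8% lower. Against C185Gneo, 12 were higher and 16 lower, 28 in all (73.7%), where 57.8% of all genes were called, 29.2% higher and 28.7% lower. All 38 genes had a mean of at least 5 CPM, and among the 11619 genes at that level 60.8% were called against WT and 63.3% against C185Gneo. Both comparisons use the same C185G libraries. In C185Gneo against WT 0 of the 38 genes were called by limma, where 0.541% of all genes were (87 genes, and 40 to 112 with 1 library left out). At an unadjusted p under 0.05 there were 2, where 9.54% of all genes passed it, and voom weights also gave 0 called and 2 unadjusted. Log2 changes in that comparison ran from -0.09 to 0.18, with a smallest adjusted p of 0.306.

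The sizes of the changes were modest beside the rest of the transcriptome. A log2 change over 0.5 in either direction was seen in 5 of the 38 genes (13.2%) against WT, where 34.2% of all genes and 28.9% of those with at least 5 CPM passed it. Against C185Gneo it was again 5 (13.2%), beside 36.6% and 31.4%. None of the 38 passed a log2 change of 1 in either comparison, which 11.9% of all genes and 8.54% of those with at least 5 CPM did against WT, and 13.8% and 10.3% against C185Gneo. The median size of the log2 change against WT was 0.25 for the 38 genes, 0.34 for all genes and 0.30 for those with at least 5 CPM. Against C185Gneo it was 0.27 for the 38 genes, 0.36 for all genes and 0.32 for those with at least 5 CPM. Their median signed log2 change was -0.02 against WT and -0.06 against C185Gneo, where the median over all genes was -0.0004 and 0.0038. With library totals as the scaling, 14 of the 38 were higher and 6 lower against WT and their median was 0.06, with 59.9% of all calls higher in place of 49.6%. The libraries of both groups did not overlap for 20 of the 38 genes against WT (48.7% of all genes) and for 23 against C185Gneo (49.9% of all genes). Between C185Gneo and WT this held for 3 (6.87% of all genes). Summed over the 38 genes the level was 2913 ± 82.8 CPM in C185G, 3123 ± 62.7 in C185Gneo and 2996 ± 111 in WT (SD, n = 4 each). C185G replicate 1 lay nearest to the WT mean in 54.3% of all called genes, and in 10 of the 22 called here. It lay nearest to the C185Gneo mean in 52.7% of all genes called against C185Gneo, and in 10 of the 28 called here. C185G replicate 2 was nearest in 12 of these 28, where it was nearest in 16.5% of all called genes. Without C185G replicate 1, 12 of the 38 were higher and 11 lower against WT, and 12 higher and 15 lower against C185Gneo. Of all 16080 genes, 9277 were then called against WT in place of 8852, and 9641 against C185Gneo in place of 9298.

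**Figure D1:**
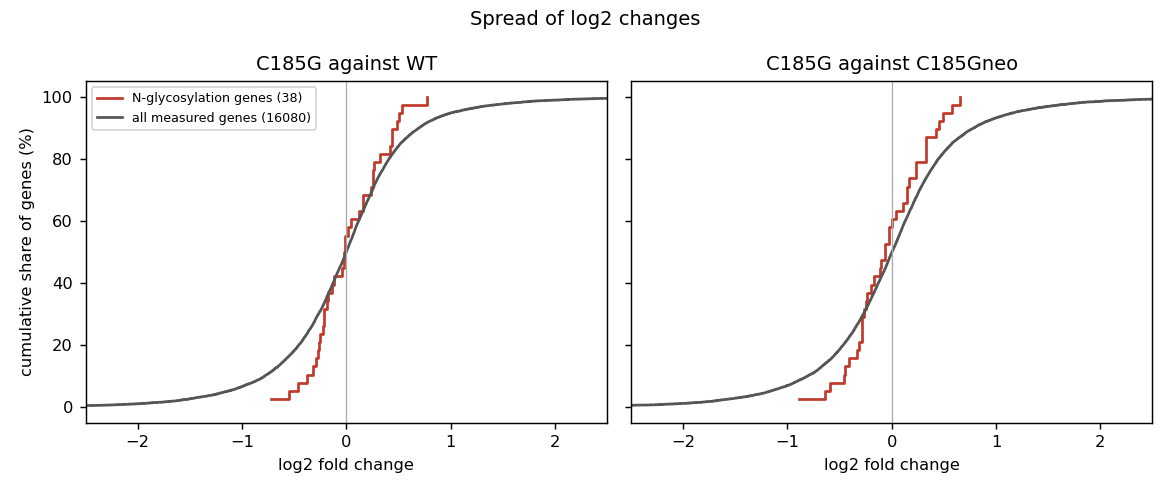
Cumulative share of genes (%, vertical axis) by log2 fold change (horizontal axis) in C185G against WT (left) and C185G against C185Gneo (right), for the 38 N-glycosylation genes (red) and all 16080 measured genes (grey). The red steps all lie between -0.72 and 0.77 on the left and between -0.89 and 0.65 on the right, while the grey curves run on past 1 on both sides of 0.

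**Figure D2:**
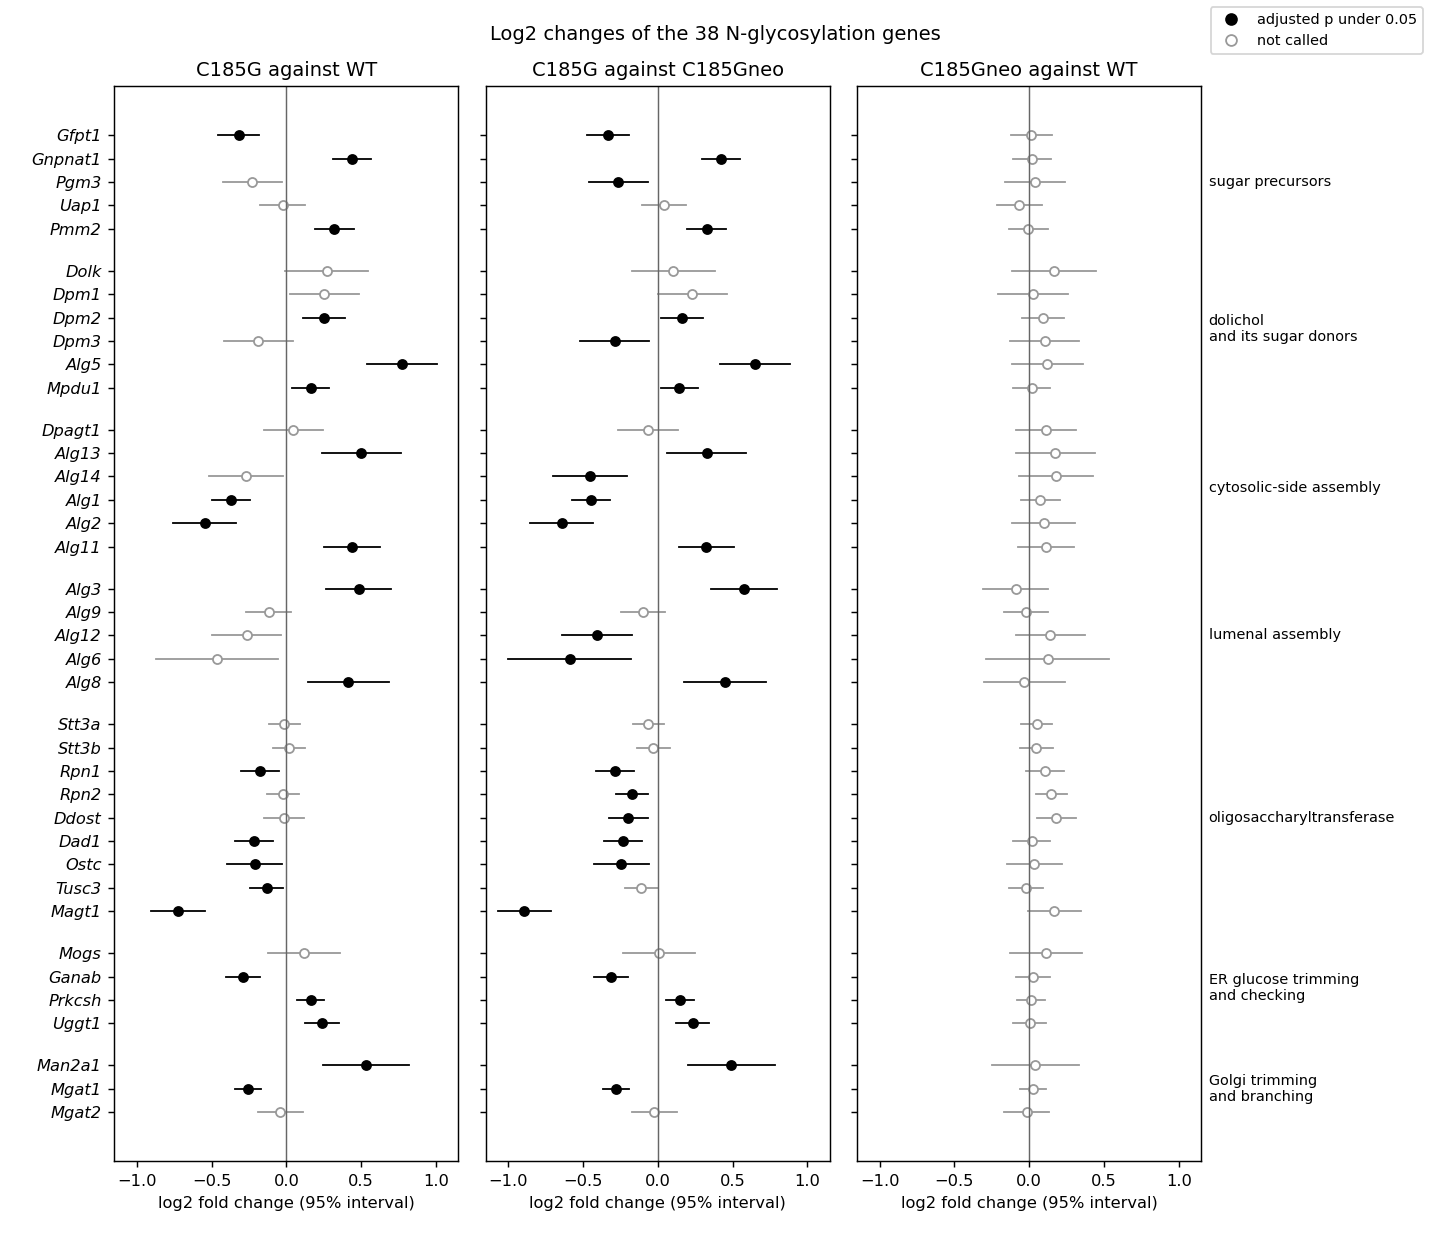
Log2 fold changes (points) with 95% confidence intervals (lines) of the 38 genes, grouped by role, in the 3 comparisons. Filled points have an adjusted p under 0.05; they lie on both sides of 0 in most roles, 5 (left) and 6 (middle) of the 9 oligosaccharyltransferase genes are filled and all of those are below 0, and no point is filled in C185Gneo against WT.

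At the extremes against WT stood Alg5 (log2 fold change 0.77), which makes dolichyl-phosphate glucose, and Magt1 (-0.72), an oxidoreductase subunit of the oligosaccharyltransferase. Their promoters are shown for that reason, together with that of Alg12, a lumenal mannosyltransferase gene and the only one with an ER stress response element (ERSE) among the 32 of the 38 whose promoter was searched. The windows are RefSeq sequence of GRCm38.p6, from 250 bases before the start to 50 after it, 5′ to 3′ on the strand of the gene, and capitals mark the matches found on either strand. The CCAAT box (CCAAT) reads ATTGG when it lies on the other strand, and the ERSE is CCAAT, 9 bases of any kind and CCACG, so that each ERSE also holds a CCAAT box.
Magt1, chrX:106011753-106012052, minus strand: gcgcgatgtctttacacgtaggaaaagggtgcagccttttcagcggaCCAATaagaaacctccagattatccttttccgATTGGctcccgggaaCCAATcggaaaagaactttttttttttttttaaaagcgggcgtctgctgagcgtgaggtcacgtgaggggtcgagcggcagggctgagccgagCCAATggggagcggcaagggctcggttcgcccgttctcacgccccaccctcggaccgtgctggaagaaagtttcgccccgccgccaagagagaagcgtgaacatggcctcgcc
Alg5, chr3:54735289-54735588, plus strand: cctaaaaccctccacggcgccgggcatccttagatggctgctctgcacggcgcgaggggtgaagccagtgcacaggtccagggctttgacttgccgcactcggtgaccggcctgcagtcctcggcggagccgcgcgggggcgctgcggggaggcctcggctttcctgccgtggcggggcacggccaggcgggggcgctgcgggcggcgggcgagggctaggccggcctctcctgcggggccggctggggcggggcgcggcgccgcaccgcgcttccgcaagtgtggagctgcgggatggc
Alg12, chr15:88819269-88819568, minus strand: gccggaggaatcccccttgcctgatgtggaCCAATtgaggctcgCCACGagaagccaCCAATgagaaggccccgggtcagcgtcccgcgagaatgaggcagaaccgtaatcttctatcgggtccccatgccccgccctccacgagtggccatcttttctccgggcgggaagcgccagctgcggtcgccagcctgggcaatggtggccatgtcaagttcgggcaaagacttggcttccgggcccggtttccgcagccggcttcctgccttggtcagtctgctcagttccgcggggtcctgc
The Magt1 window held 4 CCAAT boxes, starting 203, 156 and 63 bases before the start on the strand of the gene and 171 bases before it on the other strand. These distances are from the RefSeq start of the window, and the annotated 5′ end of Magt1 in GENCODE lies 104 bases further upstream, so that the box at 63 is inside the gene as annotated there. The Alg5 window held none of the motifs searched, and its GC content was 76.0%, against 57.0% for Magt1. In Alg12 the ERSE began 220 bases before the start, and another CCAAT box began 193 bases before it. CCAAT boxes were in 18 of the 32 genes searched (56.2%) and in 41.1% of the 27025 genes with a window. ERSE was in 1 of the 32 and in 0.137% of all. ERSE-II (ATTGG, 1 base of any kind and CCACG), UPRE (TGACGTGG) and an ATF4 site (TGATGNAA) were in 0 of the 32 genes and in 0.0444%, 0.714% and 4.51% of all 27025. These matches describe letters in a window only.

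Of the 5 genes of sugar precursors, 2 were higher and 1 was lower in C185G against WT, and 2 were higher and 2 lower against C185Gneo. As shares these are 60% and 80%, where 55% and 57.8% of all genes were called in either direction. Gfpt1, the rate-limiting first enzyme of the hexosamine pathway to UDP-N-acetylglucosamine, fell. It had 232, 236, 221 and 223 CPM in C185G, 302, 282, 283 and 281 in C185Gneo, and 319, 295, 275 and 252 in WT. Every C185G library lay below all 8 others. The log2 fold change was -0.32 against WT (SE 0.0642, adjusted p = 0.000833) and -0.33 against C185Gneo (adjusted p = 0.000557). Gnpnat1, the acetyltransferase of the next step, moved the other way. It had 33.7, 32.2, 34.2 and 33.4 CPM in C185G, 24.4, 24.1, 24.3 and 26.9 in C185Gneo, and 24.1, 24.7, 24.0 and 25.6 in WT. The 4 C185G libraries were above all others, with a log2 fold change of 0.44 against WT (SE 0.0589, adjusted p = 2.9e-05) and 0.42 against C185Gneo (adjusted p = 3.72e-05). Pmm2, the phosphomannomutase that leads to GDP-mannose, also rose. Its values were 34.6, 38.8, 38 and 41.5 CPM in C185G, 31.0, 29.8, 30.1 and 30.7 in C185Gneo, and 30.9, 29.5, 30.8 and 31.0 in WT. Again no C185G library overlapped the others, and the log2 fold change was 0.32 against WT (SE 0.0608, adjusted p = 0.000535) and 0.33 against C185Gneo (adjusted p = 0.00042). Pgm3, the acetylglucosamine phosphate mutase, had a log2 fold change of -0.23 against WT (adjusted p = 0.0517) and -0.26 against C185Gneo (adjusted p = 0.0256). Its call against C185Gneo was lost without C185G 3 or 4 or C185Gneo 1 (adjusted p = 0.0534 to 0.0843), and a call against WT was gained without C185Gneo 1 or 4 or WT 4 (0.0212 to 0.0472). Uap1, which completes UDP-N-acetylglucosamine, did not pass the test in either comparison (-0.03 and 0.04). Pmm2, Gnpnat1 and Pgm3 overlap measured genes on the opposite strand, and the strand setting of the counting is not given, so these 3 are uncertain. Against WT, the log2 fold change was 0.27 for Carhsp1 (adjusted p = 0.00125) and 0.23 for Tmem186 (0.0987), which overlap Pmm2, -0.02 for Styx (0.904), which overlaps Gnpnat1, and -0.70 for Dop1a (8.13e-07), which overlaps Pgm3.

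Among the 6 genes for dolichol and its sugar donors, 3 rose and 0 fell in C185G against WT, and 3 rose and 1 fell against C185Gneo. Called in either direction were 50% and 66.7% of them, beside 55% and 57.8% of all genes. Of all genes, 27.3% were called higher and 27.8% lower against WT. Alg5 (ENSMUSG00000036632) is on the plus strand of chromosome 3 (54735539 to 54751318, GRCm38). It had 23.8, 29.9, 33.4 and 36.8 CPM in C185G, 19.2, 21.2, 18.4 and 19.0 in C185Gneo, and 17.2, 18.4, 18.5 and 17.5 in WT. All 4 C185G libraries were above the other 8, and replicate 1 was the nearest to them. Its log2 fold change was 0.77 against WT (SE 0.109, adjusted p = 4.61e-05) and 0.65 against C185Gneo (adjusted p = 0.000184). Dpm2, a membrane subunit of dolichol-phosphate mannose synthase, had 24.5, 27.4, 27.8 and 26.6 CPM in C185G, 25.2, 24.1, 23.0 and 22.5 in C185Gneo, and 21.6, 23.4, 21.9 and 22.1 in WT. C185G lay above WT throughout and overlapped C185Gneo. The log2 fold change was 0.25 against WT (SE 0.0655, adjusted p = 0.00469) and 0.16 against C185Gneo (adjusted p = 0.0445). The call of Dpm2 against C185Gneo was lost without C185G 2, 3 or 4, C185Gneo 2, 3 or 4, or any WT library (adjusted p = 0.0511 to 0.114). Mpdu1 is needed for the use of dolichol-linked mannose and glucose. Its values were 56.6, 60.9, 63.6 and 57.5 CPM in C185G, 57.1, 55.1, 51.3 and 52.2 in C185Gneo, and 52.6, 51.2, 56.6 and 52.7 in WT. Its groups touched or overlapped, with a log2 fold change of 0.16 against WT (SE 0.0577, adjusted p = 0.0281) and 0.15 against C185Gneo (adjusted p = 0.0443). The call of Mpdu1 against WT was lost without C185G 2 or 3 or WT 1, 2 or 4 (adjusted p = 0.0586 to 0.0881), and that against C185Gneo without C185G 2 or 3, C185Gneo 2, 3 or 4 or WT 1, 2 or 4 (0.0519 to 0.13). Dpm1, the catalytic subunit of the mannose synthase, and Dolk, the dolichol kinase, did not pass the test (0.25 and 0.27 against WT, adjusted p = 0.0593 and 0.0921). Dpm1 was called without C185Gneo 1 or WT 4 (0.0424 and 0.0167) and Dolk without WT 3 (0.00524). Dpm3, the third subunit of the synthase, was called lower against C185Gneo only (-0.29, adjusted p = 0.0337, and 0.0616 to 0.105 without C185G 1 or 2 or C185Gneo 1 or 2), with -0.19 against WT (adjusted p = 0.158).

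On the cytosolic side of the ER membrane, 2 of 6 genes rose and 2 fell in C185G against WT, and 2 rose and 3 fell against C185Gneo. That is 66.7% and 83.3% called in either direction, beside 55% and 57.8% of all genes. Alg1, which adds the first mannose, and Alg2, which adds the next ones, fell, whereas Alg11, which completes the cytosolic intermediate, rose. Alg1 had 22.1, 21.6, 20.7 and 20.6 CPM in C185G, 29.1, 30.8, 28.3 and 27.7 in C185Gneo, and 27.9, 26.9, 28.3 and 26.9 in WT. Alg2 had 23.2, 26.7, 25.7 and 23.4 CPM in C185G, 42.0, 34.4, 41.1 and 37.3 in C185Gneo, and 35.6, 37.0, 42.3 and 30.3 in WT. Both were below all 8 other libraries in every C185G library. Their log2 fold changes against WT were -0.37 for Alg1 (SE 0.0593, adjusted p = 0.000123) and -0.55 for Alg2 (SE 0.0977, adjusted p = 0.00033), and against C185Gneo -0.45 for Alg1 (adjusted p = 2.31e-05) and -0.64 for Alg2 (adjusted p = 7.86e-05). Alg11 had 16.2, 16.8, 18.0 and 15.8 CPM in C185G, 13.6, 13.3, 12.8 and 13.4 in C185Gneo, and 14.1, 12.3, 10.9 and 12 in WT. It was above all others in C185G, with a log2 fold change of 0.44 against WT (SE 0.0867, adjusted p = 0.000712) and 0.33 against C185Gneo (adjusted p = 0.00548). Alg13 and Alg14 encode the catalytic and the membrane partner of 1 enzyme, the N-acetylglucosamine transferase that acts between Dpagt1 and Alg1. Alg13 was higher against WT (0.50, adjusted p = 0.00332) and C185Gneo (0.33, adjusted p = 0.0342), and Alg14 had -0.27 against WT (adjusted p = 0.0597) and -0.45 against C185Gneo (adjusted p = 0.00421). The call of Alg13 against C185Gneo was lost without C185G 2, 3 or 4 or C185Gneo 1, 2 or 3 (adjusted p = 0.0528 to 0.113), and Alg14 was called against WT without C185G 1 or 2 or C185Gneo 1 (0.027 to 0.0476). Dpagt1, which starts the chain and is the target of tunicamycin, did not pass the test (0.05 against WT, 95% interval -0.15 to 0.24, and -0.07 against C185Gneo). Alg1 overlaps Eef2kmt on the opposite strand, which had a log2 fold change of -0.06 against WT (adjusted p = 0.557), and is uncertain for the same reason.

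On the lumenal side, 2 of 5 genes rose and 0 fell in C185G against WT, and 2 rose and 2 fell against C185Gneo. Called in either direction were 40% and 80% of them, beside 55% and 57.8% of all genes. Of all genes, 27.3% were called higher and 27.8% lower against WT. Alg3, the first lumenal mannosyltransferase, and Alg8, the glucosyltransferase that acts after Alg6, rose. Alg3 had 11.8, 15.7, 14.0 and 15.6 CPM in C185G, 9.37, 9.72, 9.52 and 9.46 in C185Gneo, and 10.1, 9.17, 11.2 and 10.2 in WT. Alg8 had 11.2, 9.45, 9.16 and 9.36 CPM in C185G, 7.23, 6.50, 8.98 and 6.15 in C185Gneo, and 7.95, 6.96, 7.75 and 6.66 in WT. Every C185G library was above the other 8 for both genes, although narrowly for Alg3 in replicate 1 and for Alg8 beside C185Gneo 3. The log2 fold change of Alg3 was 0.48 against WT (SE 0.102, adjusted p = 0.0012) and 0.57 against C185Gneo (adjusted p = 0.000291). For Alg8 it was 0.41 against WT (SE 0.126, adjusted p = 0.0128) and 0.45 against C185Gneo (adjusted p = 0.0077). Alg12 and Alg6, the first lumenal glucosyltransferase, pointed the other way. Alg12 had 14.4, 14.5, 13.6 and 10.5 CPM in C185G, 18.9, 16.8, 18.0 and 16.0 in C185Gneo, and 16.9, 14.9, 16.8 and 14.7 in WT. Its C185G libraries lay below all others, yet it was called against C185Gneo only (-0.41, adjusted p = 0.00537) and not against WT (-0.27, SE 0.108, adjusted p = 0.0507). Leaving out C185G 1 or 2 or WT 4 brought Alg12 under the threshold against WT (adjusted p = 0.0318 to 0.0495). Alg6 had 4.996, 5.31, 3.38 and 3.08 CPM in C185G, 6.46, 7.11, 4.82 and 6.44 in C185Gneo, and 4.86, 5.77, 6.85 and 5.24 in WT. Its groups overlapped, and C185G 3 and 4 were the lowest. The log2 fold change of Alg6 was -0.46 against WT (SE 0.191, adjusted p = 0.0528) and -0.59 against C185Gneo (adjusted p = 0.017). Without C185G 3 or 4 or C185Gneo 2 the call of Alg6 against C185Gneo was lost (adjusted p = 0.0522 to 0.0573), and without C185G 1 or 2, C185Gneo 3 or WT 1 it was called against WT (0.0219 to 0.0471). Alg9, a mannosyltransferase that acts between Alg3 and Alg12, did not pass the test (-0.12 and -0.10), and it too overlaps a measured gene on the opposite strand.

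Of the 9 oligosaccharyltransferase genes, 0 rose and 5 fell in C185G against WT, and 0 rose and 6 fell against C185Gneo. As shares these are 55.6% and 66.7%, where 55% and 57.8% of all genes were called in either direction. By direction, 27.8% of all genes were called lower against WT and 28.7% against C185Gneo, and 27.3% and 29.2% higher. Magt1 had the largest change of the 9 in both comparisons, and the catalytic subunits Stt3a and Stt3b did not pass the test. Magt1 (ENSMUSG00000031232) is on the minus strand of chromosome X (105968084 to 106011906, GRCm38). It had 56.1, 50.9, 42.3 and 42.6 CPM in C185G, 90.3, 87.2, 88.5 and 87.5 in C185Gneo, and 83.0, 83.4, 74.1 and 74.5 in WT. All 4 C185G libraries were below the other 8. The log2 fold change of Magt1 was -0.72 against WT (SE 0.0836, adjusted p = 7.51e-06) and -0.89 against C185Gneo (adjusted p = 9.26e-07). Tusc3, its paralogue and alternative in the same complex, had 74.0, 77.7, 72.7 and 70.6 CPM in C185G, 81.8, 79.6, 75.4 and 81.6 in C185Gneo, and 78.9, 77.0, 85.7 and 81.9 in WT. Its groups overlapped, with a log2 fold change of -0.13 against WT (SE 0.052, adjusted p = 0.0435) and -0.11 against C185Gneo (adjusted p = 0.0835). Stt3a, the catalytic subunit of the complex at the translocon, had 179, 201, 187 and 183 CPM in C185G, 203, 191, 196 and 193 in C185Gneo, and 192, 187, 195 and 182 in WT. Stt3b, its counterpart for sites that the first complex skips, had 165, 178, 180 and 188 CPM in C185G, 193, 178, 177 and 178 in C185Gneo, and 173, 182, 176 and 171 in WT. The groups overlapped for both. Log2 fold changes against WT were -0.01 for Stt3a (95% interval -0.12 to 0.09, adjusted p = 0.843) and 0.02 for Stt3b (95% interval -0.09 to 0.13, adjusted p = 0.785), and the sign turned with 1 library left out for both and with library totals as the scaling for Stt3a.

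The shared subunits moved less than Magt1. Dad1, a small subunit next to the catalytic one, had 94.3, 94.9, 98.8 and 94.7 CPM in C185G, 116, 118, 114 and 104 in C185Gneo, and 114, 110, 120 and 102 in WT. Rpn1, ribophorin I, had 211, 243, 212 and 234 CPM in C185G, 285, 286, 268 and 255 in C185Gneo, and 257, 249, 265 and 244 in WT. No C185G library overlapped another group for either gene, although Rpn1 in C185G 2 came close to WT 4. Log2 fold changes against WT were -0.22 for Dad1 (SE 0.0585, adjusted p = 0.00624) and -0.18 for Rpn1 (SE 0.0591, adjusted p = 0.0215), and against C185Gneo -0.23 for Dad1 (adjusted p = 0.00377) and -0.28 for Rpn1 (adjusted p = 0.00101). Ostc, a subunit of the Stt3a complex, was lower by a small amount against WT (-0.21, adjusted p = 0.0493) and C185Gneo (-0.24, adjusted p = 0.0248). Rpn2, ribophorin II, and Ddost were called lower against C185Gneo (-0.17, adjusted p = 0.00908, and -0.20, adjusted p = 0.0132) but not against WT (-0.02 for each, adjusted p = 0.721 and 0.844). Their C185Gneo libraries lay above all WT libraries without a call (0.15 for Rpn2, adjusted p = 0.306, and 0.18 for Ddost, adjusted p = 0.312). The same held for Magt1 (0.17, adjusted p = 0.562), and these were the 3 genes of the 38 whose C185Gneo and WT libraries did not overlap. Among all genes, 6.87% did not overlap in that comparison. With library totals as the scaling, which shifts the median log2 change of all genes by 0.08 against WT, Dad1, Rpn1, Ostc and Tusc3 lost their calls against WT (adjusted p = 0.0582, 0.201, 0.234 and 0.435), and Rpn2, Ddost and Ostc lost theirs against C185Gneo (0.0747, 0.0794 and 0.103). The call of Rpn1 against WT was also lost without C185G 1 or 3 or WT 3 (adjusted p = 0.0547 to 0.0667), that of Ostc against WT without C185G 3 or 4, C185Gneo 2, 3 or 4 or WT 1, 3 or 4 (0.0507 to 0.157), that of Tusc3 without C185G 1, 3 or 4, C185Gneo 1, 2 or 4 or WT 1, 3 or 4 (0.0509 to 0.122), and that of Ostc against C185Gneo without C185G 3 or 4 or C185Gneo 1 or 3 (0.0655 to 0.0838).

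**Figure D3:**
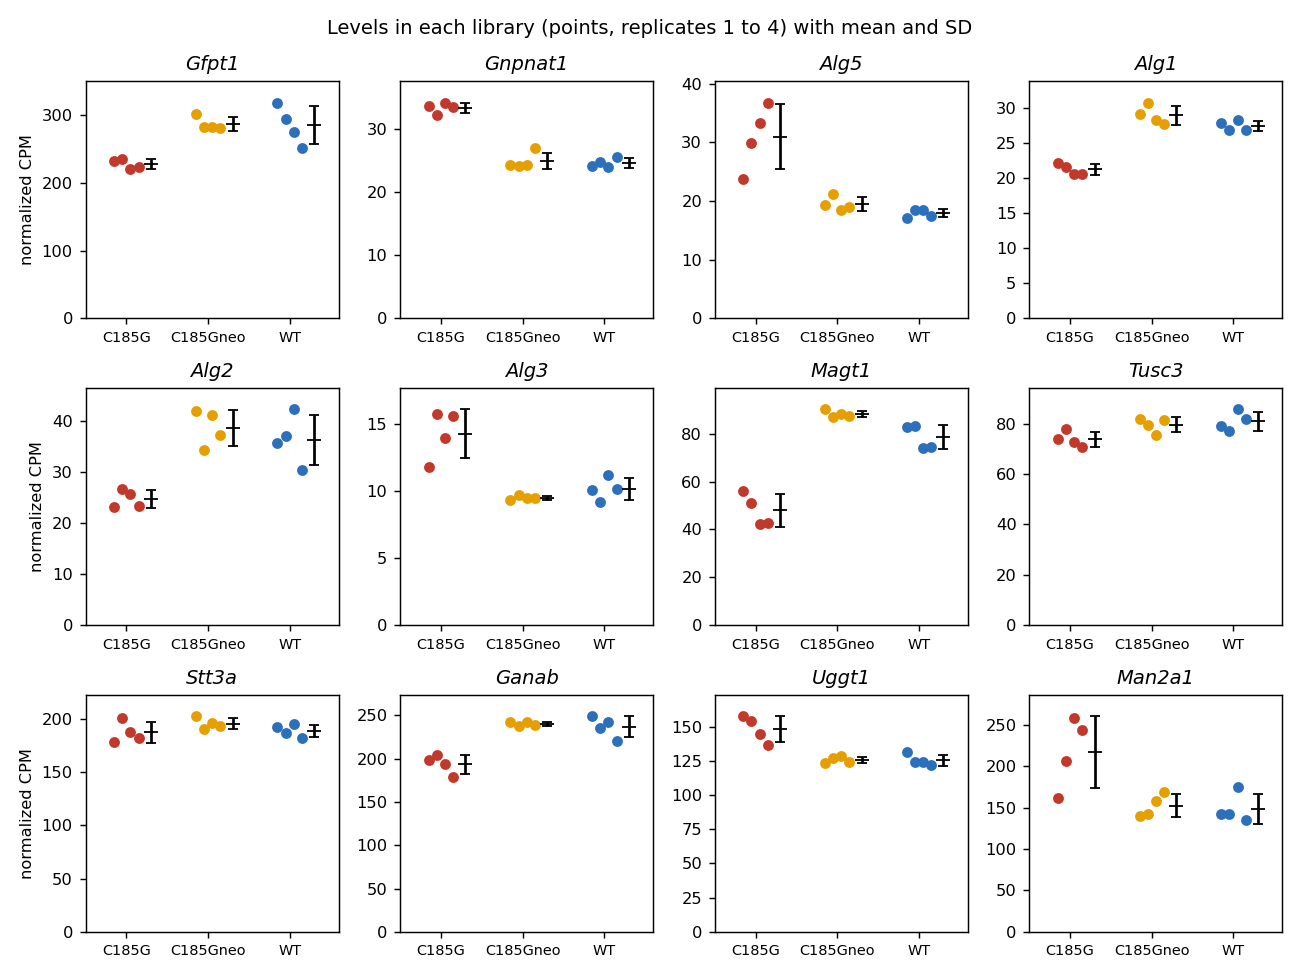
Normalized CPM (vertical axes, from 0) of 12 of the genes in each library of C185G, C185Gneo and WT, with points for libraries and bars for mean and SD (n = 4 per group). Magt1 in C185G lies between 42.3 and 56.1 and below every other library, Alg5 and Alg3 in C185G lie above every other library and spread widely, and the groups overlap for Stt3a.

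Levels of subunit genes were also set side by side per kilobase (kb) of the principal transcript of each gene, including 3 small subunits outside the 38 (Krtcap2, Ost4 and Tmem258). In WT, Rpn2 was highest at 106 ± 3.87 CPM per kb, followed by Ddost at 84.2 ± 4.99, and Magt1 was lowest at 17.4 ± 1.14 (SD, n = 4). In C185G, Rpn2 had 105 ± 5.30 CPM per kb and Magt1 10.6 ± 1.49. Tusc3 had 48.0 ± 1.95 CPM per kb in C185G, 51.9 ± 1.95 in C185Gneo and 52.7 ± 2.46 in WT, so that its level per kb was above that of Magt1 in every group. The order depends on the length used: with the union of all exons, Ddost ranked first and Ostc last in WT. Stt3b had 42.2 ± 2.25 CPM per kb in C185G and 41.6 ± 1.19 in WT, beside 31.9 ± 1.63 in C185G and 32.2 ± 0.998 in WT for Stt3a. Summed over the 9 listed genes, the level was 1305 ± 49.1 CPM in C185G, 1497 ± 52.8 in C185Gneo and 1398 ± 46.7 in WT.

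**Figure D4:**
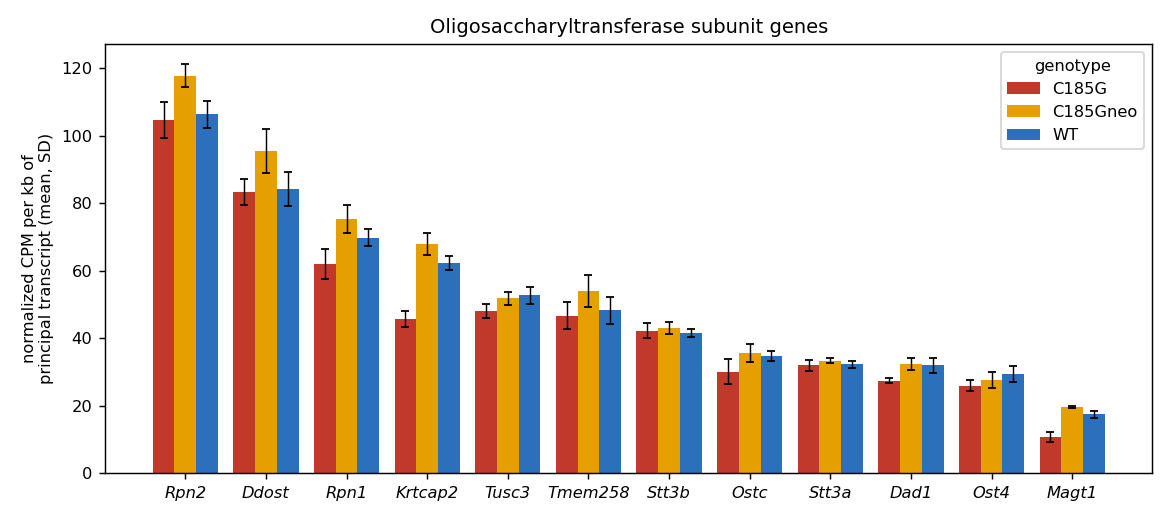
Level of 12 oligosaccharyltransferase subunit genes in normalized CPM per kb of principal transcript (vertical axis, from 0) in C185G, C185Gneo and WT, as means with SD (n = 4 per group). Magt1 is the lowest of the 12 in all 3 groups and its C185G bar, at 10.6 CPM per kb, is the shortest of the plot.

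Of the 4 genes for glucose trimming and folding checks in the ER, 2 rose and 1 fell in C185G, against WT and against C185Gneo alike. That is 75% in each comparison, where 55% and 57.8% of all genes were called in either direction. Both partners of glucosidase II moved in opposite directions. Ganab, the catalytic subunit, had 198, 205, 193 and 179 CPM in C185G, 242, 238, 242 and 239 in C185Gneo, and 249, 236, 242 and 220 in WT. Prkcsh, the non-catalytic subunit that keeps the enzyme in the ER, had 110, 117, 108 and 112 CPM in C185G, 103, 102, 100.3 and 97.9 in C185Gneo, and 99.7, 99.1, 102 and 99.4 in WT. Every C185G library was below the other 8 for Ganab and above them for Prkcsh. Log2 fold changes against WT were -0.29 for Ganab (SE 0.0525, adjusted p = 0.000364) and 0.16 for Prkcsh (SE 0.043, adjusted p = 0.00571), and against C185Gneo -0.31 for Ganab (adjusted p = 0.000182) and 0.15 for Prkcsh (adjusted p = 0.00917). Uggt1, the folding sensor that puts glucose back on misfolded glycoproteins, rose. Its values were 158, 154, 144 and 137 CPM in C185G, 123, 127, 128 and 124 in C185Gneo, and 131, 124, 124 and 122 in WT. The C185G libraries were above all others, with a log2 fold change of 0.24 against WT (SE 0.0516, adjusted p = 0.00142) and 0.23 against C185Gneo (adjusted p = 0.00149). Mogs, glucosidase I, did not pass the test (0.12 against WT, 95% interval -0.12 to 0.36, and 0.01 against C185Gneo).

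In the Golgi, 1 of 3 genes rose and 1 fell in C185G against both controls. That is 66.7% in each comparison, where 55% and 57.8% of all genes were called in either direction. Mgat1, which starts hybrid and complex glycans, had 91.9, 92.6, 90.2 and 91.3 CPM in C185G, 112, 112, 113 and 108 in C185Gneo, and 107, 112, 107 and 111 in WT. Its C185G libraries were below all others and lay close together. The log2 fold change of Mgat1 was -0.25 against WT (SE 0.0408, adjusted p = 0.000134) and -0.28 against C185Gneo (adjusted p = 5.26e-05). Man2a1, the mannosidase that acts next, had 162, 206, 258 and 244 CPM in C185G, 140, 143, 159 and 170 in C185Gneo, and 142, 142, 175 and 135 in WT. C185G 1 lay within the range of both control groups, and the other 3 C185G libraries were above all 8. Its log2 fold change was 0.53 against WT (SE 0.133, adjusted p = 0.0046) and 0.49 against C185Gneo (adjusted p = 0.00701). Mgat2, which starts the other branch, had 65.2, 68.4, 63.6 and 65.2 CPM in C185G, 64.8, 59.7, 72.6 and 70.4 in C185Gneo, and 73.0, 68.9, 67.7 and 60.7 in WT. Its groups overlapped and it did not pass the test (-0.04 against WT, 95% interval -0.19 to 0.11, and -0.02 against C185Gneo).

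A further list of 56 N-glycan pathway genes, all measured, had 14 genes higher and 13 lower in C185G against WT (48.2%, where 55% of all genes were called) and 17 and 13 against C185Gneo (53.6%, where 57.8% were). In C185Gneo against WT, limma called 0 of them, and 5 had an unadjusted p under 0.05, as had 9.54% of all genes. The 4 higher genes with the smallest p against WT were Pmm1, Cmas, Nus1 and Ugp2. Pmm1, the paralogue of Pmm2, had 75.5, 80.3, 94.3 and 84.4 CPM in C185G, 24.5, 20.2, 23.1 and 21.5 in C185Gneo, and 23.7, 20.3, 18.9 and 18.9 in WT. Its log2 fold change was 2.03 against WT (SE 0.0915, adjusted p = 1.66e-09) and 1.90 against C185Gneo (adjusted p = 2.27e-09), larger than that of any of the 38 genes. Cmas, which activates sialic acid, rose by 0.95 (adjusted p = 8.5e-07), Nus1, a subunit of the enzyme that builds the dolichol chain, by 0.49 (adjusted p = 1.04e-05), and Ugp2, which makes UDP-glucose, by 0.49 (adjusted p = 1.24e-05). The 4 lower genes were Fut8, Gne, Man1a and Krtcap2. Fut8, the core fucosyltransferase, had 53.9, 60.2, 62.2 and 55.8 CPM in C185G, 128, 118, 119 and 125 in C185Gneo, and 133, 135, 121 and 113 in WT, a log2 fold change of -1.11 against WT (SE 0.0659, adjusted p = 1.66e-08). Man1a, a Golgi mannosidase, fell by 1.11 (adjusted p = 3.25e-06), Gne, which starts sialic acid synthesis, by 0.65 (adjusted p = 2.21e-07), and Krtcap2, a subunit of the Stt3a complex, by 0.45 (adjusted p = 1.28e-05).

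Paralogues were compared within each library, as the log2 CPM of one minus that of the other, not per length, for 6 pairs over 3 comparisons. Magt1 minus Tusc3 was -0.63 ± 0.169 in C185G, 0.15 ± 0.057 in C185Gneo and -0.04 ± 0.158 in WT (SD, n = 4 each). No C185G library overlapped either control group in this difference. Pmm1 minus Pmm2 was 1.13 ± 0.130 in C185G, -0.45 ± 0.103 in C185Gneo and -0.58 ± 0.157 in WT, again without overlap between C185G and either control. Gfpt2 minus Gfpt1 was -0.995 ± 0.204 in C185G, -3.11 ± 1.25 in C185Gneo and -2.34 ± 0.257 in WT. Gfpt2 itself ran from 102 to 145 CPM in C185G, 10.3 to 73.3 in C185Gneo and 49.9 to 66.4 in WT, and was called against C185Gneo (1.78, adjusted p = 0.00795) but not against WT (1.03, adjusted p = 0.0885). Uggt2 minus Uggt1 was -5.03 ± 0.190 in C185G, -4.50 ± 0.151 in C185Gneo and -4.55 ± 0.407 in WT, without overlap against C185Gneo and with overlap against WT. Stt3a minus Stt3b and Man2a2 minus Man2a1 overlapped between all groups. With 4 libraries against 4 the smallest p that an exact two-sided permutation test allows is 0.0286, and over the 18 tests the smallest Benjamini-Hochberg adjusted p was 0.0735, so none passed. That floor leaves little room to pass after adjustment, so the absence of a pass does not show that the differences were alike. The floor of 0.0286 was reached by Magt1 minus Tusc3, Pmm1 minus Pmm2 and Gfpt2 minus Gfpt1 in both C185G comparisons and by Uggt2 minus Uggt1 against C185Gneo.

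**Figure D5:**
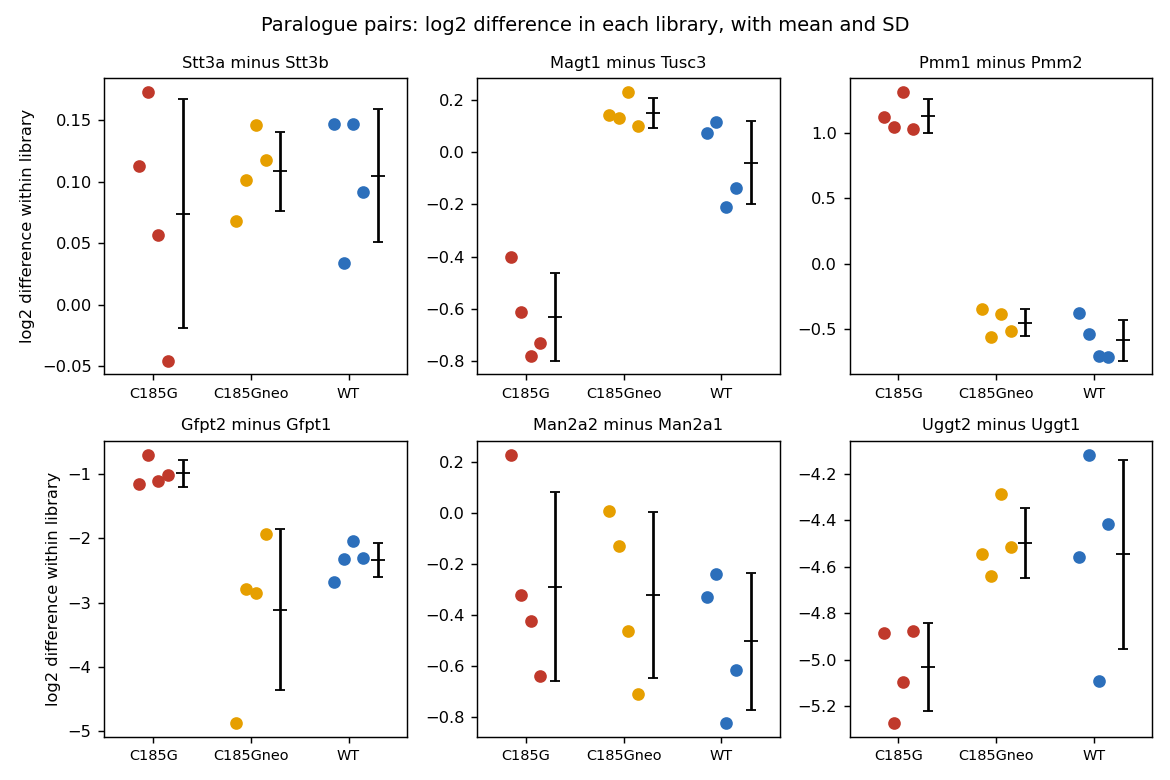
Log2 level of one paralogue minus that of the other within each library (vertical axes, each with its own range) for 6 pairs, with points for libraries of C185G, C185Gneo and WT and bars for mean and SD (n = 4 per group). C185G lies below both controls for Magt1 minus Tusc3 and above them for Pmm1 minus Pmm2 and Gfpt2 minus Gfpt1, and overlaps them for Stt3a minus Stt3b.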

How the data were processed

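RNA of AEC2 from 12 libraries (C185G, C185Gneo and WT, 4 each, by the genotype label) was analysed. Per the labels' protocols, lungs were digested with Dispase and DNase, mesenchymal cells were removed by plastic adherence and CD45-positive cells by beads. STAR, limma and mm10 are named, per the submitters' processing notes. Versions, annotation, strand setting and the counting tool were details not given in the sources used here. The deposited values are log2 of the sum of a whole count and 0.5, multiplied by 1 factor per library, as read from their spacing (100% whole within 1e-06). The counts thus recovered, less the added number, gave normalized CPM. Names and positions came from GENCODE M21 (GRCm38).

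All 12 libraries entered 1 limma fit (limma 3.58.1 in R 4.3.3, trend and robust), 1 coefficient for each genotype, and Benjamini-Hochberg adjustment over 16080 genes. No gene was filtered here, and the low counts of weakly expressed genes widen their error. The deposited values hold 16080 genes and lack others, such as Emcn, Adgre1, Marco and Cd3e. Shares of all genes refer to that set. The scripts were tested on simulated data. The unit is log2, so no count model was used. The 38 genes and the other lists were chosen with earlier results of these data known. Every listed gene is accounted for; values by library are given for up to 3 genes per role with the smallest p against WT, for genes whose call differs between both C185G comparisons with a log2 change over 0.5, and for the pairs Stt3a and Stt3b, Tusc3 and Magt1. From the other pathway genes the 4 with the smallest p in each direction are named, and paralogues of listed genes. Alternatives covered scaling, trend, filter, weights, added number, libraries in the fit, a replicate block and each library left out.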

Additional observations from a re-analysis of the deposited data

Results flagged for a closer look

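In 9 of the 114 combinations of gene and group examined, 1 of the 4 libraries lay far from the other 3, by the size of its gap relative to the range of the group. Chance flags about 1 in 20 such groups. In C185G, Alg8 had 11.18 CPM in replicate 1, where the others had 9.157 to 9.452, and Dad1 had 98.82 CPM in replicate 3 (others 94.3 to 94.94). In C185Gneo replicate 1, Gfpt1 had 302 CPM (others 281.3 to 283.3), Stt3b 193.3 CPM (177.2 to 178.1) and Dpm1 7.955 CPM (9.669 to 9.935). In C185Gneo replicate 4, Gnpnat1 had 26.94 CPM (24.12 to 24.38) and Mgat1 107.8 CPM (112.1 to 112.6). In WT, Alg13 had 4.119 CPM in replicate 1 (4.848 to 4.992) and Pmm2 29.53 CPM in replicate 2 (30.82 to 31).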

How the results depend on the processing

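Over 22 alternatives, 17 of the 22 calls against WT and 19 of the 28 against C185Gneo held in every one, Magt1, Alg5, Alg1, Alg2, Alg3, Gnpnat1, Gfpt1, Ganab, Uggt1 and Mgat1 among them in both comparisons. Other calls were lost in some of the 22 alternatives, with their number in brackets. Against WT these were Tusc3 (14), Ostc (13), Mpdu1 and Rpn1 (5 each) and Dad1 (1). Against C185Gneo they were Dpm2 (14), Mpdu1 (13), Dpm3 and Alg13 (8 each), Ostc (6), Pgm3 (4), Alg6 (3), Rpn2 and Ddost (1 each). With library totals as the scaling, 59.9% of all calls against WT were higher in place of 49.6%, 14 of the 38 genes were higher and 6 lower against WT, and their median log2 change was 0.06 against WT and -0.001 against C185Gneo. That scaling also turned the sign of genes near 0: against WT to 0.0543 for Uap1, 0.0675 for Stt3a, 0.0574 for Rpn2, 0.0643 for Ddost and 0.0401 for Mgat2, and against C185Gneo to 0.0001 for Stt3a, 0.0343 for Stt3b and 0.0396 for Mgat2. Library quality weights gave 0.0102 for Stt3a against WT. None of these genes was called in the comparison named. With each library left out, log2 changes against WT ran from -0.056 to 0.0216 for Uap1, -0.0461 to 0.0094 for Stt3a, -0.0524 to 0.0056 for Rpn2, -0.0013 to 0.1079 for Dpagt1, -0.0096 to 0.0529 for Stt3b and -0.0577 to 0.009 for Ddost. Against C185Gneo they ran from -0.0572 to 0.0052 for Stt3b, -0.0669 to 0.0848 for Mogs and -0.0771 to 0.0165 for Mgat2. The median of the 38 genes ran from -0.05 to 0.01 against WT and -0.11 to -0.04 against C185Gneo, with 7 to 13 genes lower against WT. Of all 16080 genes, 7932 to 9277 were then called against WT in either direction. All genes called in C185Gneo against WT numbered 54 without the mean-variance trend, 162 with library weights and 40 to 112 with a library left out. The cause of these shifts was not tested. To see whether replicate numbers pair the libraries, the group mean of each gene was subtracted, over genes with a mean of at least 5 CPM. Correlations of these deviations between libraries of different groups ran from -0.30 to 0.253 for the 12 same-number pairs. For the 36 different-number pairs they ran from -0.383 to 0.275, and 5 of 12 libraries were closest to their own number. These values do not settle whether replicate numbers pair the libraries. With the replicate block, C185G against WT had 8670 genes called, 12 of the 38 higher and 10 lower, but Ostc (adjusted p = 0.0501) and Tusc3 (0.0744) lost their calls and Pgm3 (0.0203) and Alg12 (0.0245) gained one. C185G against C185Gneo then had 9112 genes called, 10 of the 38 higher and 15 lower, without Dpm2 (0.0648), Dpm3 (0.0553) and Mpdu1 (0.0642), while the control comparison had 63 and 0. Alg6, with few counts, had the widest interval of the 38, and an absent call does not show that levels are alike.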
